A study of Homo sapiens with 29 samples.

Results

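The 39 genes described here are the antigen presentation and immune ligand genes of PC9 cells, out of 35580 genes to which the deposited transcripts could be assigned. They were chosen by name and role: 4 class I heavy chains, the light chain B2M, 8 genes of peptide transport and editing, 5 of the immunoproteasome and its activator, 2 transactivators, 8 class II genes, 7 ligands of T cell and NK cell receptors, CD47 and 3 complement regulators. PC9 is a lung adenocarcinoma line with an activating EGFR mutation, and erlotinib (E) inhibits EGFR. RNA was measured in 10 PC9 lines, untreated, after 24 h with E, or after 24 h with E and AF154, an antibody that activates the receptor tyrosine kinase AXL (EA), with 1 library per line and treatment. There were 10 untreated libraries, 10 with E and 9 with EA. PAR is the parental line with its own AXL. KO is an AXL knockout made from it with CRISPR/Cas9. The 8 other lines are KO cells transduced by lentivirus with wild-type AXL (WT), a kinase-dead AXL (KD), or AXL in which a tyrosine was replaced by phenylalanine (Y634F, Y643F, Y698F, Y726F, Y750F and Y821F), and the study's methods describe them as populations sorted for GFP. The 9 lines other than PAR therefore share the history of the knockout cells. The combination EA in KO was not analysed here.

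Class I molecules, a heavy chain paired with B2M, carry peptides from proteins made inside the cell to the surface, where CD8 T cells read them and NK cell receptors sense their absence. The peptides are cut by the proteasome, whose immune form holds PSMB8, PSMB9 and PSMB10, pumped into the endoplasmic reticulum by TAP1 and TAP2, trimmed by ERAP1 and ERAP2, and loaded with the help of TAPBP (tapasin), CALR and PDIA3. Class II molecules, normally restricted to antigen-presenting cells but found in some lung epithelial cells, present peptides from endosomes and depend on the chaperone CD74. The transcription of class I genes is set by interferon response elements and by the coactivator NLRC5, and that of class II genes by the coactivator CIITA.

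Promoter windows of 5 members are shown, picked among the members whose windows hold the motif marked below. These genes stand for both directions of the response to E described in the next paragraphs. B2M and TAP1 rose, TAP2 and CD274 fell, and HLA-F rose in the 9 lines made from knockout cells but not in PAR. Each window holds 250 bases before and 50 after a start site annotated by RefSeq on GRCh38.p14 and is written 5′ to 3′ on the strand of the gene, with capitals marking GAAA, any 2 bases and GAAA, the spacing of sites for interferon regulatory factors, or the same read on the other strand (TTTC, any 2 bases and TTTC). The windows are chr15:44711267-44711566 (plus strand) for B2M, chr6:29723184-29723483 (plus) for HLA-F, chr6:32853655-32853954 (minus) for TAP1, chr6:32838690-32838989 (minus) for TAP2 and chr9:5450292-5450591 (plus) for CD274.
B2M: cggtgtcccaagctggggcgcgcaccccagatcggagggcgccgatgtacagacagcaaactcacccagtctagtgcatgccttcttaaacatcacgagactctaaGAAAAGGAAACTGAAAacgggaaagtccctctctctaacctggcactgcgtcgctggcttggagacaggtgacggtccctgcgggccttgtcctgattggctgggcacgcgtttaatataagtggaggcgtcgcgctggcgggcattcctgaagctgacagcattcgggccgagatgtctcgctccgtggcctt
HLA-F: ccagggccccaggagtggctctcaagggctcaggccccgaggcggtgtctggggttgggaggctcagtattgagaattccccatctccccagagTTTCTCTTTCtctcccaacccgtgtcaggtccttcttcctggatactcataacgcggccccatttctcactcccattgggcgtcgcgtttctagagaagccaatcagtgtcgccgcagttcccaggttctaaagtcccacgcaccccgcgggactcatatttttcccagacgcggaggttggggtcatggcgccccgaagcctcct
TAP1: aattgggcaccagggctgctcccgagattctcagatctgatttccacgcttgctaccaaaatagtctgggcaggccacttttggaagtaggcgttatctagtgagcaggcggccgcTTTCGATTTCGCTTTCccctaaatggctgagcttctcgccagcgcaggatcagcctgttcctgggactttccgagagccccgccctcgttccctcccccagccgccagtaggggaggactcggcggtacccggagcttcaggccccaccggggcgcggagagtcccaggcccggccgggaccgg
TAP2: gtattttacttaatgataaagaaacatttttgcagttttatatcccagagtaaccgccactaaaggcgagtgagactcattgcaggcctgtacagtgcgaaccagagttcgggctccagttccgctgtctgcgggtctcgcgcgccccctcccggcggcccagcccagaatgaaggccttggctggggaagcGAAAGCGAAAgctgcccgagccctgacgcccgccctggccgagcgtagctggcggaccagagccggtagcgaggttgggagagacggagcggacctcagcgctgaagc
CD274: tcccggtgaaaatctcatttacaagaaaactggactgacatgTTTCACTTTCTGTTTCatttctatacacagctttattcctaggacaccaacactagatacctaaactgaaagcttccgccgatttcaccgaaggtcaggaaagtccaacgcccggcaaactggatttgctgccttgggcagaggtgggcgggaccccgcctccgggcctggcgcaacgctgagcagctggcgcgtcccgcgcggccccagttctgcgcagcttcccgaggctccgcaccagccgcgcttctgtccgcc

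RefSeq gave at least 1 window for 34 of the 39 members, 45 windows in all, and none for HLA-E, PDIA3, NLRC5, CIITA and HLA-DRA. This motif was present on either strand in 12 of the members' 45 windows (26.7%) and in 3.57% of all 35116 windows of this length, and by gene in 12 of these 34 members (35.3%) and in 4.38% of all genes with a window. Of the 17 members with a window that rose with E, 8 held it (HLA-F, B2M, TAP1, TAPBP, ERAP1, PSMB8, PSMB10 and PSME1), and of the 7 that fell, 3 held it (TAP2, ERAP2 and CD274). In B2M, TAP1 and CD274 the capitals are a pair of matches that overlap each other. CCAAT or ATTGG was present in 51.1% of the members' windows and 34.6% of all windows, and by gene in 20 members (58.8%) and 39.7% of all genes. Matches to the 2 motifs did not overlap each other in the members' windows. A match shows that these letters are present and nothing about binding.

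The values are TPM, a measure of transcript abundance per length, deposited per transcript and summed per gene. TPM has the same total in every library and keeps no read number, so the depth behind a value is unknown and errors come from the differences among lines. For many members the sum depended on which transcripts were counted. The deposited transcripts include copies of the major histocompatibility complex and of a few other regions on alternate haplotypes and patches of the genome, and 21 members have such copies. Over the 29 libraries HLA-C had 308 TPM on the primary assembly and 34.8 TPM on alternate copies, but HLA-E had 20.8 and 124 TPM, PSMB9 had 8.93 and 71.3 TPM, MICB had 1.08 and 26.0 TPM and HLA-F had 0.486 and 22.0 TPM. Of 13 HLA-E transcripts with a mean of at least 1 TPM, 12 had the same value as another one in all 29 libraries. All copies of a gene were therefore added. For PSMB8, the sum over the primary assembly alone ended the call in each of the comparisons where it passed, and the values are given there.

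**Figure D1:**
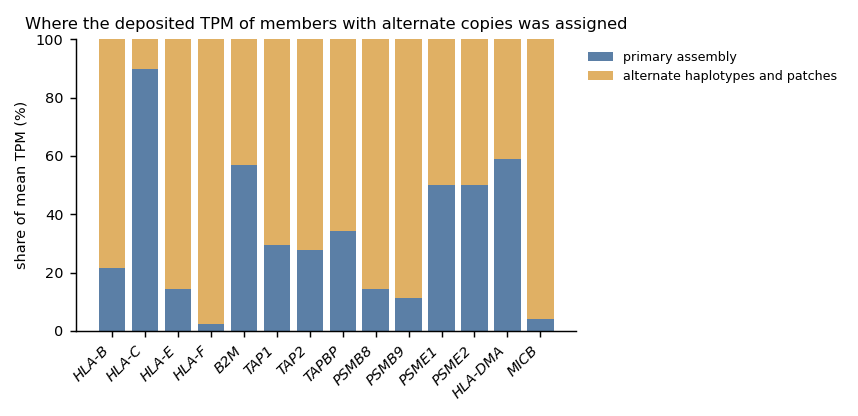
Share (%) of each gene's mean TPM over the 29 libraries that was assigned to transcripts of the primary assembly (blue) and to transcripts on alternate haplotypes and patches (yellow), for the 14 members with alternate copies and a mean of at least 10 TPM. HLA-F and MICB lie almost wholly on alternate copies, and HLA-C mostly on the primary assembly.

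Of the 39 members, 29 had a mean of at least 10 TPM and were tested among 9241 such genes, against 24 members with the primary assembly alone, where HLA-F, TAP1, PSMB9, HLA-DMA and MICB fell under the minimum. The label of the cells was checked with marker genes. All 6 epithelial markers were high, with EPCAM between 286 and 439 TPM and KRT8 between 1249 and 1952 TPM. Of 10 haematopoietic markers, CD3E was at 0 in every library, 9 had a mean under 1 TPM, and the summed level of the list was 2.92 to 6.71 TPM untreated, 2.75 to 7.80 TPM with E and 1.46 to 5.998 TPM with EA. KO had the lowest AXL of all lines, 92.4 TPM without treatment, where the other lines had 217 TPM or more, and 79.3 TPM with E. With 1 library per line and treatment, the lines stand as replicates, so p-values measure the spread between lines that carry different receptors. Changes are differences in log2(TPM + 1), which understate the changes of low genes, given as the mean ± SE, and adjusted p-values come from limma, blocked by line where treatments are compared, and are Benjamini-Hochberg values over the 9241 genes. In RNA from whole dishes, fewer cells of a type and less RNA per cell cannot be told apart.

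With E, the class I chains HLA-B, HLA-C, HLA-E and B2M rose in every line, while the ligand genes CD274, MICB, PVR and CD276 fell in every line. Of the 29 members tested, 27 passed the threshold of 0.05 between E and untreated, 19 of them higher and 8 lower. Among all 9241 genes, 79.1% passed, 36.6% higher and 42.6% lower, so a change as such was the rule in these cells. The median difference was 0.35 over the members and -0.04 over all genes tested. The levels of 7 members in the 10 E libraries lay wholly above those in the 10 untreated libraries (HLA-C, HLA-E, TAP1, TAPBP, TAPBPL, PSME1 and CD55), against 14.9% of all genes, and those of 5 lay wholly below (TAP2, CD274, PVR, MICB and CD59), against 21.6%.

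**Figure D2:**
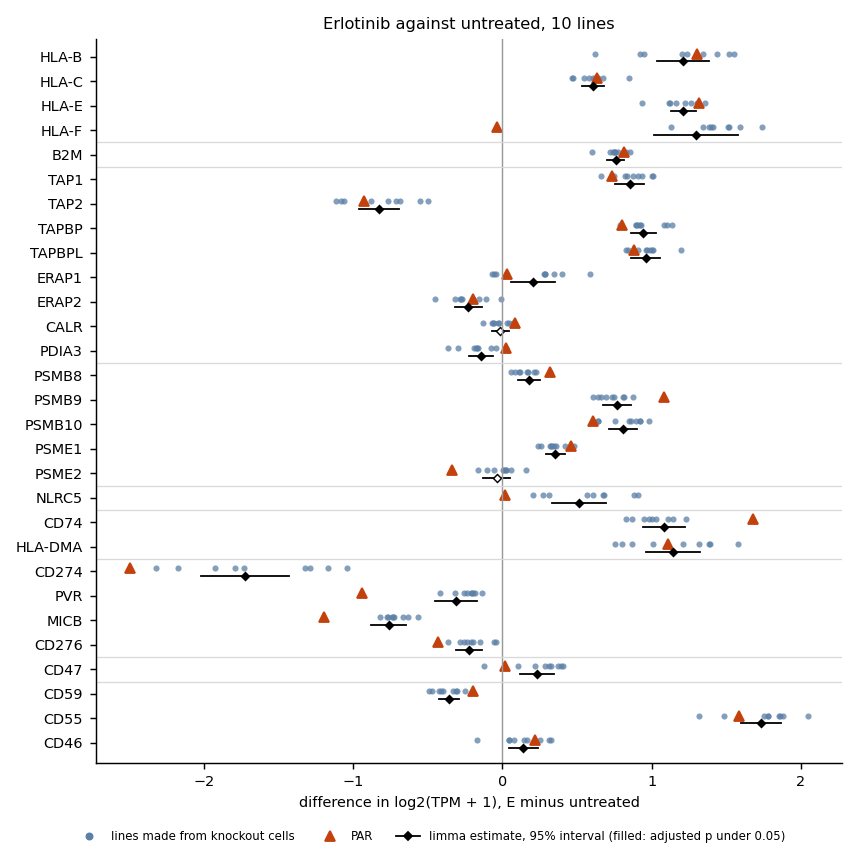
Difference in log2(TPM + 1) between E and untreated for the 29 members tested, in each of 9 lines made from knockout cells (circles) and in PAR (triangles), with the limma estimate and its 95% interval (diamonds, filled where the adjusted p was under 0.05). Class I genes and CD55 lie to the right of 0 and CD274, TAP2 and MICB to the left, and PAR stands apart for HLA-F, PVR, MICB and CD74.

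All 4 class I heavy chains and B2M rose with E. HLA-B, a classical heavy chain that presents peptides to CD8 T cells, was at a median of 28.4 TPM (range 12.1–36.1) in the untreated lines and a median of 67.0 TPM (range 31.3–104) with E. Its mean level was 2.36-fold higher and its log2 difference was 1.21 ± 0.08 (adjusted p = 2.61e-09, limma), with a rise in 10 of 10 lines. The groups overlapped only in PAR, the lowest line in both, which reached with E a level within the untreated range. HLA-C, the other classical heavy chain measured here, rose less, from a median of 261 TPM (range 209–309) to a median of 402 TPM (range 324–433), a log2 difference of 0.61 ± 0.03 (adjusted p = 3.74e-10, limma). Its lowest E library lay above its highest untreated one. In the annotation HLA-B (chr6:31269491-31357188 in GENCODE release 29, GRCh38) and HLA-C (chr6:31268749-31272130) overlap, and reads of such similar genes may be divided between them.

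HLA-E, which presents leader peptides of other class I chains to the NK cell receptor CD94/NKG2A, rose from a median of 79.6 TPM (range 68.7–103) to a median of 182 TPM (range 173–207). The log2 difference was 1.21 ± 0.04 (adjusted p = 1.26e-12, limma) and the groups did not overlap. HLA-F, a nonclassical heavy chain, was at a median of 11.7 TPM (range 7.57–14.1) untreated and a median of 30.9 TPM (range 11.8–38.8) with E, and differed by 1.30 ± 0.13 (adjusted p = 3.16e-07, limma). It rose by 1.13 to 1.74 in the 9 lines made from knockout cells and changed by -0.04 in PAR. B2M, the light chain that every class I molecule needs, was the most abundant member, at a median of 1472 TPM (range 978–1803) untreated and a median of 2497 TPM (range 1719–3011) with E. It rose in 10 of 10 lines by 0.60 to 0.85, a mean log2 difference of 0.76 ± 0.03 (adjusted p = 1.55e-12, limma). Outside PAR the groups of B2M did not overlap, since the highest untreated library had 1803 TPM and the lowest E library of the 9 other lines 2345 TPM.

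**Figure D3:**
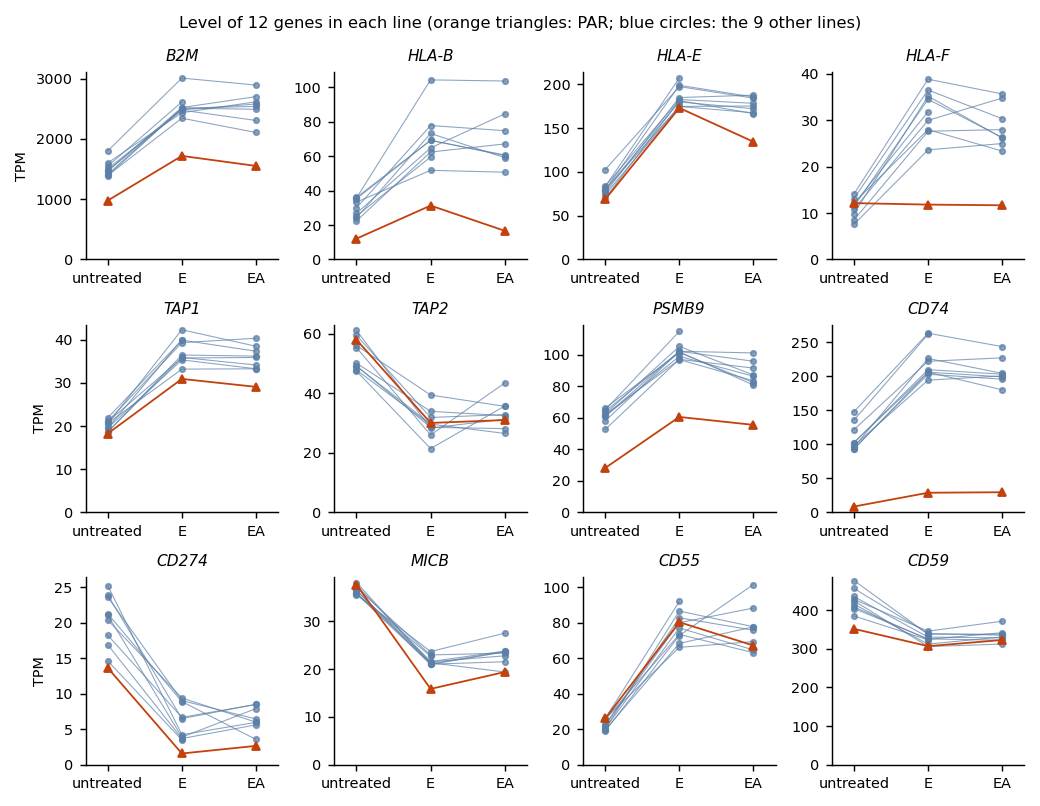
TPM of 12 members in each line, untreated, with E and with EA, with each line's libraries joined (KO has no EA library). PAR (orange triangles) lies below the 9 other lines (blue circles) for B2M, HLA-B, PSMB9 and CD74 in all 3 treatments, and its HLA-F stays at 11.7 to 12.1 TPM.

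Among the genes of peptide transport and editing the subunits of the peptide pump moved in opposite directions. TAP1 rose from a median of 20.04 TPM (range 18.2–21.9) to a median of 36.2 TPM (range 30.9–42.4) in 10 of 10 lines (log2 difference 0.85 ± 0.05, adjusted p = 1.94e-10, limma). TAP2 fell from a median of 52.8 TPM (range 47.5–61.2) to a median of 29.5 TPM (range 21.4–39.4) in 10 of 10 lines (-0.83 ± 0.06, adjusted p = 1.36e-08, limma). Neither gene's groups overlapped, and the 2 genes, whose products form 1 transporter, crossed from more TAP2 than TAP1 in every untreated line to medians of 36.2 TPM for TAP1 and 29.5 TPM for TAP2 with E. TAP2 fell with the primary assembly alone too, and its transcript TAP2-201 there went from 10.9–13.8 to 4.95–9.40 TPM. TAP1 (chr6:32845209-32853978) overlaps PSMB9 (chr6:32844136-32859585) on the opposite strand, and the sources used here do not say whether the quantification used strand.

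The peptide editors TAPBP and TAPBPL rose together. TAPBP, which bridges the pump to the class I molecule, went from a median of 67.4 TPM (range 57.2–76.0) to a median of 130.1 TPM (range 122–137) (0.95 ± 0.04, adjusted p = 1.46e-11, limma). TAPBPL, a relative of tapasin that edits peptides outside the loading complex, went from a median of 16.6 TPM (range 12.4–19.9) to a median of 31.9 TPM (range 28.5–37.7) (0.96 ± 0.05, adjusted p = 5.32e-11, limma). Both were higher in every E library than in any untreated one. The trimming peptidases split: ERAP1 rose by 0.20 ± 0.07 in 7 of 10 lines (adjusted p = 0.0152, limma), a call that ended with coding transcripts alone (0.086, adjusted p = 0.187, limma), and ERAP2 fell by 0.23 ± 0.04 in 10 of 10 (adjusted p = 0.00021, limma), and both groups overlapped. For the general chaperones of the endoplasmic reticulum that also serve class I loading, CALR was at a median of 874 TPM (range 795–947) untreated and a median of 870.0 TPM (range 815–949) with E, a log2 difference of -0.01 with a 95% interval of -0.07 to 0.04 that did not pass (adjusted p = 0.639, limma) and turned to 0.08, past the threshold as higher, with quantile normalization (adjusted p = 0.00303, limma). PDIA3 was lower in 8 of 10 lines, by 0.14 ± 0.04 (adjusted p = 0.00278, limma), and did not pass with library medians centred (adjusted p = 0.0858, limma).

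The catalytic subunits that replace the standard ones in the immunoproteasome all rose. PSMB9 went from a median of 61.5 TPM (range 28.1–66.1) to a median of 102 TPM (range 60.5–115) (0.77 ± 0.04, adjusted p = 4.32e-10, limma) and PSMB10 from a median of 39.6 TPM (range 25.9–50.1) to a median of 74.8 TPM (range 40.0–83.8) (0.81 ± 0.04, adjusted p = 2.89e-10, limma). PSMB8 rose by only 0.18 ± 0.03, from a median of 81.7 TPM (range 59.2–85.8) to a median of 90.8 TPM (range 73.9–97.7), in 10 of 10 lines (adjusted p = 0.000216, limma). With the primary assembly alone its difference was 0.42 and did not pass (adjusted p = 0.066, limma). The groups of these 3 genes overlapped through PAR, whose levels with E were at or below the highest untreated ones. Of the PA28 activator that opens the proteasome, PSME1 rose in 10 of 10 lines, from a median of 129.7 TPM (range 124–140.0) to a median of 165 TPM (range 160.0–181) (0.35 ± 0.03, adjusted p = 4.32e-08, limma). Its partner PSME2 differed by -0.04 (95% interval -0.13 to 0.05) and did not pass (adjusted p = 0.41, limma), with a sign that turned under 2 other scalings.

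The list of standard proteasome genes moved the other way. Of its 11 genes, 0 rose and 10 fell with E, with a median log2 difference of -0.46 beside -0.04 over all genes. The largest falls were PSMD1, a subunit of the regulatory cap (-0.72 ± 0.04, adjusted p = 1.27e-10, limma), and PSMA7, a subunit of the core (-0.63 ± 0.04, adjusted p = 1.8e-09, limma). PSMB5, PSMB6 and PSMB7, the catalytic subunits that PSMB8, PSMB9 and PSMB10 stand in for, fell by 0.24, 0.21 and 0.25. The list of folding and translocation genes of the endoplasmic reticulum behaved alike, with 0 of 10 genes higher, 7 lower and a median of -0.30. Its largest falls were PDIA6 (-0.57 ± 0.03, adjusted p = 3.62e-10, limma) and PDIA4 (-0.54 ± 0.06, adjusted p = 4.22e-07, limma), both disulfide isomerases.

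NLRC5, the coactivator of class I transcription, was at a median of 19.3 TPM (range 13.7–22.7) untreated and a median of 26.3 TPM (range 19.7–38.3) with E. It rose by 0.51 ± 0.08 (adjusted p = 5.15e-05, limma) in 10 of 10 lines, but by only 0.02 in PAR, and the groups overlapped. CIITA, the coactivator of class II transcription, stayed between 0.417 and 2.60 TPM, and with the minimum at a mean of 1 TPM its difference of 0.09 ± 0.19 did not pass (adjusted p = 0.67, limma). Among 7 measured factors that bind the promoters of these genes, 3 rose and 1 fell, beside 36.6% and 42.6% of all genes. RFX5, the large subunit of the RFX complex that recruits both coactivators, rose from a median of 44.1 TPM (range 36.5–57.7) to a median of 94.9 TPM (range 53.9–102) (0.99 ± 0.06, adjusted p = 4.86e-10, limma), NFYB, a subunit of the CCAAT-binding factor, by 0.40 ± 0.06 (adjusted p = 4.42e-05, limma), and ATF1 fell by 0.22 ± 0.08 (adjusted p = 0.0224, limma).

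Of 13 measured genes of interferon signalling, 9 rose and 0 fell, beside 36.6% and 42.6% of all genes. Their median log2 difference was 0.44, beside -0.04 over all genes. The largest rises were IRF9 (1.36 ± 0.09, adjusted p = 2.83e-09, limma) and STAT2 (1.22 ± 0.07, adjusted p = 6.1e-10, limma), both parts of the factor that answers type I interferon. IRF1, an activator of class I and immunoproteasome promoters, rose from a median of 22.2 TPM (range 11.9–25.7) to a median of 43.4 TPM (range 37.5–50.1) in 10 of 10 lines (1.05 ± 0.07, adjusted p = 1.62e-09, limma). In PAR it rose from the lowest untreated level, 11.9 TPM, to 37.5 TPM.

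Of the 8 class II genes, only CD74 and HLA-DMA reached a mean of 10 TPM, and both rose. CD74, the invariant chain, was at a median of 100.1 TPM (range 8.22–148) untreated and a median of 208 TPM (range 28.5–264) with E. It rose in 10 of 10 lines, by 1.08 ± 0.07 (adjusted p = 8.81e-10, limma). PAR was far below the rest at 8.22 TPM untreated and 28.5 TPM with E, and in the 9 other lines every E library (194 to 264 TPM) was above every untreated one (92.7 to 148 TPM). HLA-DMA, a chain of the HLA-DM peptide exchanger, rose from a median of 9.56 TPM (range 5.37–16.3) to a median of 21.2 TPM (range 15.6–28.9) (1.14 ± 0.08, adjusted p = 7.58e-09, limma), while its partner HLA-DMB stayed between 0.0440 and 1.02 TPM.

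The chains of the class II molecules themselves were low in all 29 libraries. HLA-DRA ranged from 0 to 0.391 TPM, HLA-DPA1 from 0 to 0.580, HLA-DRB1 from 0 to 3.57, HLA-DPB1 from 0.447 to 2.12, and HLA-DQB1 from 0.220 to 14.7 TPM. With the minimum lowered to a mean of 1 TPM, HLA-DQB1 rose in 10 of 10 lines, from a median of 2.44 TPM (range 0.220–4.91) to a median of 5.43 TPM (range 1.95–14.7) (1.14 ± 0.15, adjusted p = 1.02e-05, limma), and HLA-DPB1 fell by 0.40 (adjusted p = 0.0108, limma). The invariant chain was thus present without more than trace RNA of the alpha chains of HLA-DR and HLA-DP. Of 7 measured genes of endosomal processing, 3 rose and 3 fell, beside 36.6% and 42.6% of all genes. CTSS, the protease that removes the invariant chain, rose from a median of 6.34 TPM (range 3.76–9.45) to a median of 18.4 TPM (range 10.8–25.2) (1.45 ± 0.13, adjusted p = 8.05e-08, limma) and the protease CTSB by 0.49 ± 0.03. IFI30, a thiol reductase, fell by 0.66 ± 0.06 and CTSL by 0.35 ± 0.03 (adjusted p = 9.74e-08 and 2.07e-07, limma).

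Of the 7 ligands of T cell and NK cell receptors, 4 were tested with the 10 TPM minimum, and all 4 passed as lower (CD274, MICB, PVR and CD276). CD274 (PD-L1), which engages PD-1 on T cells, was at a median of 20.7 TPM (range 13.6–25.2) untreated and a median of 5.37 TPM (range 1.59–9.41) with E, and every E library lay below every untreated one. The difference, -1.73 ± 0.14 (adjusted p = 2.15e-08, limma), was the largest fall of any member, and the mean level with E was 0.289 of the untreated mean. MICB, a stress ligand of the activating NK receptor NKG2D, fell from a median of 36.5 TPM (range 35.6–38.1) to a median of 21.4 TPM (range 15.9–23.7) in 10 of 10 lines (-0.76 ± 0.05, adjusted p = 6.21e-09, limma). Its untreated level hardly differed between lines, with an SD of 0.903 TPM, and the groups did not overlap.

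Behind the summed MICB level, its 2 leading transcripts, both on alternate copies, went in opposite directions. ENST00000443156 went from 27.6–35.8 TPM untreated to 3.09–13.1 TPM with E, and ENST00000428059 from 0.00–2.05 to 6.53–14.8 TPM. Neither pair of ranges overlapped. These are the authors' assignments of reads to transcripts, and the part of this exchange in the fall of the sum was not tested.

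PVR (CD155), which binds the activating receptor DNAM-1 and the inhibitory receptor TIGIT, fell from a median of 72.4 TPM (range 65.0–91.6) to a median of 58.9 TPM (range 47.2–64.3) in 10 of 10 lines (-0.31 ± 0.07, adjusted p = 0.000502, limma), with -0.19 for coding transcripts alone. CD276 (B7-H3), an inhibitory ligand of the B7 family, fell from a median of 68.8 TPM (range 62.9–81.8) to a median of 58.3 TPM (range 51.5–63.3) in 10 of 10 lines (-0.22 ± 0.04, adjusted p = 0.000147, limma). The groups of PVR did not overlap and those of CD276 did. With quantile normalization the difference of CD276 was -0.14. The other NKG2D ligands were under the minimum of 10 TPM. ULBP2 had a median of 6.74 TPM (range 4.73–9.09) untreated and a median of 2.85 TPM (range 1.68–4.21) with E, and ULBP3 had a median of 5.36 TPM (range 3.66–6.58) and a median of 1.83 TPM (range 1.30–2.62). For both genes every E library was below every untreated one, with log2 differences of -1.004 ± 0.12 and -1.16 ± 0.10 (adjusted p = 3.07e-06 and 1.61e-07, limma with the minimum at a mean of 1 TPM). MICA, at a median of 8.12 TPM (range 6.67–11.04) untreated and a median of 7.70 TPM (range 6.32–9.76) with E, gave a difference of -0.05 ± 0.08 that did not pass (adjusted p = 0.635, limma).

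CD47, the signal that restrains phagocytosis through SIRPA, was at a median of 63.2 TPM (range 52.7–69.5) untreated and a median of 80.5 TPM (range 53.4–90.9) with E. It rose by 0.23 ± 0.05 in 9 of 10 lines (adjusted p = 0.000855, limma), with overlapping groups. The 3 complement regulators did not move together. CD55, which speeds the decay of C3 convertases, had the largest rise of any member, from a median of 22.4 TPM (range 19.0–26.1) to a median of 78.5 TPM (range 66.1–92.0). Its mean level was 3.42-fold higher and its log2 difference 1.74 ± 0.06 (adjusted p = 2.85e-12, limma), with no overlap between the groups. CD46, a cofactor for the cleavage of C3b and C4b, rose by 0.14 ± 0.05 in 9 of 10 lines, from a median of 91.9 TPM (range 82.5–112) to a median of 101 TPM (range 89.3–116) (adjusted p = 0.0105, limma), with 0.22 under quantile normalization. CD59, which blocks the membrane attack complex, fell from a median of 420.3 TPM (range 352–477) to a median of 325 TPM (range 306–346) in 10 of 10 lines (-0.36 ± 0.03, adjusted p = 6.09e-08, limma), and its groups did not overlap.

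The sum of a gene can hide a change in which of its transcripts the authors' quantification filled. For PSMB10, the coding transcript PSMB10-201 went from 28.5 ± 5.52 TPM untreated to 65.7 ± 11.7 TPM with E (mean ± SD, n = 10 lines each), while PSMB10-203, which retains an intron, went from 9.41 ± 2.64 to 1.68 ± 1.28 TPM with ranges that did not overlap. For TAPBPL, the coding TAPBPL-201 went from 6.38 ± 1.30 to 19.0 ± 2.32 TPM and from 39.1% to 58.5% of the gene. For HLA-DMA, the coding HLA-DMA-201 went from 3.54 ± 2.49 to 12.5 ± 2.81 TPM. For CD274, the coding CD274-202 went from 8.62 ± 1.43 to 2.67 ± 0.810 TPM and the noncoding CD274-203 from 7.25 ± 2.50 to 1.44 ± 1.49 TPM. For CD55, the coding CD55-201, CD55-204 and CD55-206 were all higher in every E library than in any untreated one. These transcripts were picked with their values in view and were not tested.

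The comparison of EA with E asks what activation of AXL adds in the presence of E, and it was made in the 8 lines other than KO and KD. The paper reports that only a minority of cells in the transduced lines expressed AXL, and that E activated AXL without the antibody. How far either affects the differences between EA and E was not tested. No member passed the test. Limma called 0 of the 29 members at an adjusted p under 0.05 and 7 at an unadjusted p under 0.05. Among all 9241 genes it called 234, or 2.53%, of which 187 (2.02%) were higher and 47 (0.509%) lower. Of these 9241 genes, 1932 had an unadjusted p under 0.05. With library medians centred the calls over all genes were 151 higher and 86 lower. The median difference was -0.01 over the members and 0.02 over all genes. For 21 of the 29 members the difference in KD lay within the range of the 8 lines. The share over all genes was not computed, so this count does not tell whether KD behaved as the 8 lines did.

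**Figure D4:**
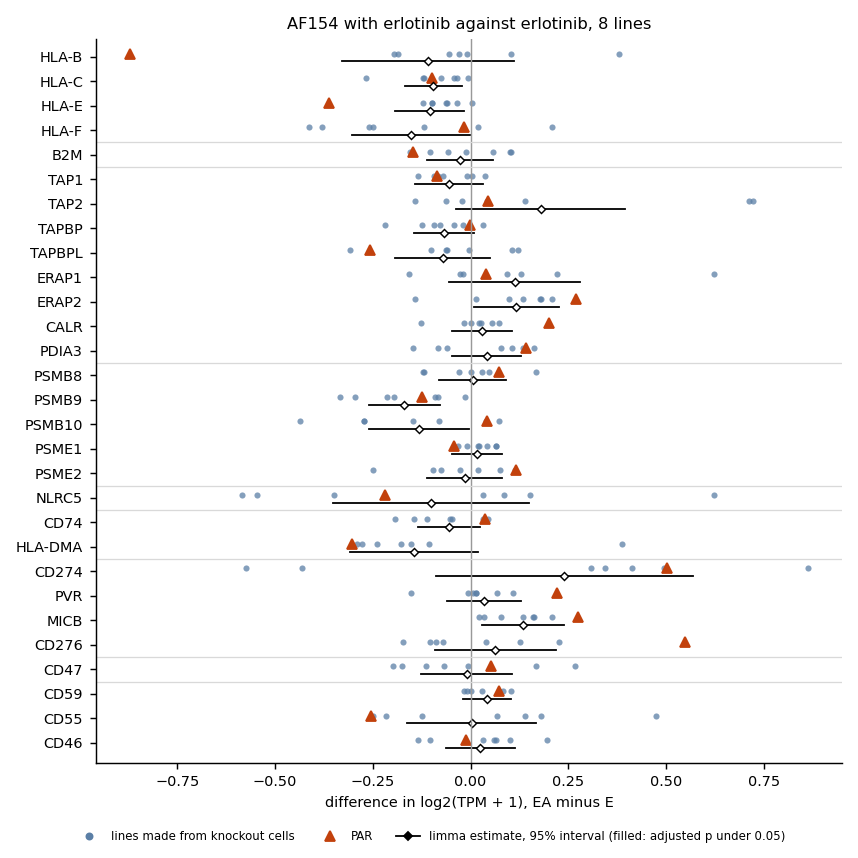
Difference in log2(TPM + 1) between EA and E for the 29 members tested, in 7 lines made from knockout cells (circles) and in PAR (triangles), with the limma estimate and its 95% interval (diamonds, open where the adjusted p was 0.05 or more). Every diamond is open, and that of PSMB9 lies farthest from 0 in units of its error.

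The 3 members with the smallest p were PSMB9, HLA-C and MICB. Their medians and ranges with EA are over all EA libraries, that of KD included, while the test leaves KD out. PSMB9 was at a median of 86.4 TPM (range 55.5–101) with EA, lower than with E in 8 of 8 lines, by 0.17 ± 0.04 (adjusted p = 0.0555, limma). Its adjusted p over the alternatives ranged from 0.0393 to 0.664 (limma), and was under 0.05 with medians centred, quantile normalization, quality weights, KD included or Y726F left out. HLA-C was at a median of 389.6 TPM (range 303–399) with EA and lower in 8 of 8 lines, by 0.10 ± 0.03 (adjusted p = 0.134, limma). MICB was at a median of 23.3 TPM (range 19.4–27.5), higher in 8 of 8 lines by 0.13 ± 0.05 (adjusted p = 0.144, limma). The E libraries enter this comparison and that with untreated cells with opposite sign, so the directions of the 2 are not independent.

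The intervals of the differences were of unequal width. The 95% interval, not adjusted for the number of genes, of the difference between EA and E was -0.11 to 0.06 for B2M, -0.14 to 0.03 for TAP1, -0.19 to -0.02 for HLA-E, -0.13 to 0.02 for CD74, -0.02 to 0.10 for CD59 and -0.06 to 0.13 for PVR. It was wider for TAP2 (-0.04 to 0.39), NLRC5 (-0.35 to 0.15), HLA-B (-0.33 to 0.11), HLA-DMA (-0.31 to 0.02), HLA-F (-0.30 to -0.00), ERAP1 (-0.05 to 0.28), CD55 (-0.16 to 0.17) and CD276 (-0.09 to 0.22). The widest was that of CD274, -0.09 to 0.57, where lines ranged from -0.57 (Y643F) to 0.86 (Y821F) and KD was at -1.11. HLA-B differed by -0.87 in PAR and by -0.19 to 0.38 in the 7 other lines. Among the genes of the other lists, HSP90B1, a chaperone of the endoplasmic reticulum, was the only one past the threshold (0.15 ± 0.04, higher in 8 of 8 lines, adjusted p = 0.044, limma).

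Against untreated cells of the same 8 lines, EA changed 25 of the 29 members, 19 higher and 6 lower. Of all genes, 70.7% passed, 33.1% higher and 37.6% lower. The median difference was 0.39 over the members and -0.03 over all genes. The untreated libraries are shared with the previous comparison of E, so the values stand side by side and are no second test. HLA-E differed by 1.09 with EA and 1.21 with E, B2M by 0.72 and 0.76, TAP1 by 0.79 and 0.85, TAP2 by -0.68 and -0.83, CD274 by -1.55 and -1.73, CD55 by 1.69 and 1.74, and CD59 by -0.34 and -0.36. The members that did not pass with EA were CALR, PSME2, ERAP2 (-0.12 ± 0.07, adjusted p = 0.15, limma) and PDIA3 (-0.07 ± 0.06, adjusted p = 0.29, limma). PSMB8 (0.17 ± 0.05) did not pass with the primary assembly alone (0.38, adjusted p = 0.218, limma), nor ERAP1 (0.28 ± 0.08) with coding transcripts alone (0.15, adjusted p = 0.143, limma), where PSMB10 was at 0.99 (0.64 with all transcripts). The calls of CD276 (-0.17) and CD46 (0.19) were lost on leaving out any of several lines, Y634F, Y750F and Y821F among them for both.

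The lines were then compared with each other. PAR had lower levels of many members than the 9 lines made from knockout cells. With the mean of the untreated and E libraries of each line, limma called 10 of the 29 members, 0 higher and 10 lower in PAR, beside 30.2% of all genes, 12.2% higher and 18.0% lower. PAR is 1 line, so what sets it apart from the others, the knockout history or the parental population, cannot be told apart. The p-values of this comparison rest on the spread of the 9 other lines alone and assume that PAR varies as they do. These 9 lines share the history of the knockout cells and are not independent of each other. The median difference was -0.20 over the members and -0.04 over all genes. In untreated cells PAR lay below all 9 other lines for 14 members and above all for 4, against 24.5% and 29.3% of all genes. With E it lay below for 19 members and above for 1, against 37.7% and 15.6%.

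**Figure D5:**
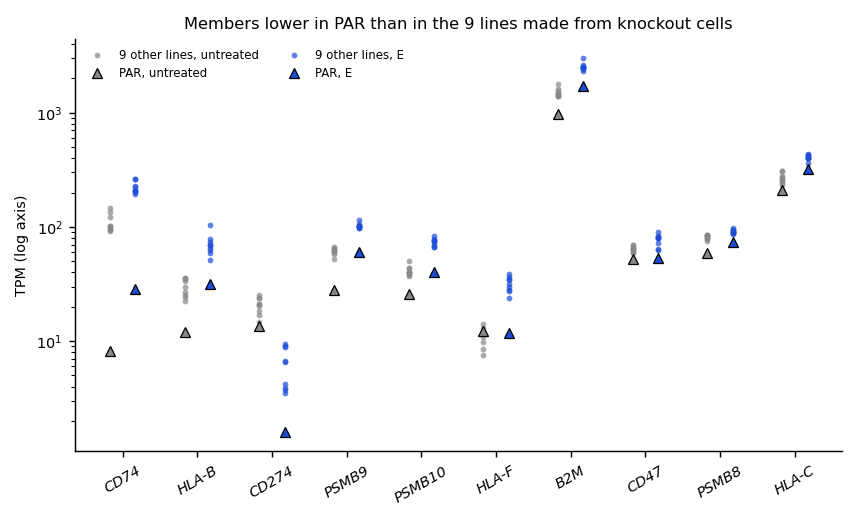
TPM on a log axis of the 10 members called lower in PAR, in PAR (triangles) and in each of the 9 lines made from knockout cells (circles), untreated (grey) and with E (blue). PAR lies under all 9 circles in both treatments for every gene but HLA-F, where it lies among the untreated circles.

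Among the 29 members the widest gap was that of CD74, at 8.22 TPM in untreated PAR and 92.7 to 148 TPM in the 9 other lines, a log2 difference of -3.24 ± 0.17 (adjusted p = 5.22e-08, limma). HLA-B followed, with 12.1 TPM in untreated PAR and 22.4 to 36.1 TPM in the others (-1.17 ± 0.19, adjusted p = 0.000523, limma). PSMB9 had 28.1 TPM beside 52.5 to 66.1 TPM (-0.92 ± 0.08, adjusted p = 6.69e-06, limma). CD274 (-0.97 ± 0.28), PSMB10 (-0.76 ± 0.10), B2M (-0.59 ± 0.10), CD47 (-0.40 ± 0.10), PSMB8 (-0.38 ± 0.06) and HLA-C (-0.34 ± 0.09) were also called lower. In the untreated libraries alone CD274, CD47 and HLA-C did not pass. The call of CD274 was also lost with quantile normalization (-0.70) and with no filter, and that of HLA-C with no filter. With coding transcripts alone the difference of B2M was -1.36, which passed. HLA-F was also called (-0.60 ± 0.20, adjusted p = 0.0397, limma), but through the E libraries, since in the untreated libraries alone PAR was higher by 0.14, which did not pass (adjusted p = 0.71, limma). Its call was also lost on leaving out Y698F, Y726F or Y750F (adjusted p = 0.0509, 0.0554 and 0.0529, limma), with the minimum at 1 TPM (0.0554) and with no filter (0.135). Of the transport and editing genes 0 of 8 passed, and TAP2 (0.08 ± 0.14) and TAPBPL (0.00 ± 0.15) had estimates near 0. PSMB8 did not pass with the primary assembly alone (-0.14, adjusted p = 0.771, limma). Of the members under 10 TPM, HLA-DQB1 was at 0.220 TPM in untreated PAR and 0.627 to 4.91 TPM in the others. Its difference was -1.46 ± 0.44 with the minimum at a mean of 1 TPM.

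Calls in the other lists went in both directions and stand beside the shares of all genes given above for this comparison. The median difference was -0.07 over the interferon signalling genes and -0.33 over the promoter factors, beside -0.04 over all genes. Of 13 interferon signalling genes 3 were lower and 0 higher, and of 7 promoter factors 4 were lower and 0 higher, with RFX5 at 36.5 TPM in untreated PAR and 40.9 to 57.7 TPM in the others (-0.55 ± 0.10, adjusted p = 0.000957, limma). Of 6 epithelial markers 0 passed. Of 7 genes of endosomal processing 3 were higher and 0 lower, of 11 standard proteasome genes 1 was higher and 3 lower, of 10 folding genes 1 was higher and 2 lower, of 9 other immune ligands 2 were higher and 3 lower, and of 4 other complement genes 1 was higher and 1 lower.

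Among the 9 lines made from knockout cells, KO, which carries no AXL construct, was compared with the 8 transduced lines, and limma called 0 of the 29 members, with 5 at an unadjusted p under 0.05. Of all genes it called 2, or 0.0216%, with 724 at an unadjusted p under 0.05. The 5 members were CD47 (-0.23 ± 0.08), CD55 (0.26 ± 0.10), HLA-DMA (0.58 ± 0.21), CD274 (-0.59 ± 0.24) and CD74 (0.32 ± 0.15), with adjusted p-values between 0.477 and 0.633 (limma). KO is 1 line too, so these p-values rest on the spread of the 8 transduced lines alone. For CD274, KO had the lowest untreated level of the 9 lines, 14.6 TPM beside 16.9 to 25.2 TPM, and for HLA-DMA the highest, 16.3 TPM beside 5.37 to 11.9 TPM. With E, Y643F had the highest level of 12 of the 29 members, beside 25.5% of all genes, among them HLA-B at 104 TPM, B2M at 3011 TPM and HLA-F at 38.8 TPM.

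The change with E in PAR was compared with that in the 9 other lines. PAR has 1 untreated and 1 E library, so these p-values rest on the spread of the 9 other lines alone and assume that PAR varies as they do. The difference between its change and that of the 9 other lines passed for HLA-F, PVR and MICB as lower and for CD74 as higher, beside 6.05% of all genes, 0.638% higher and 5.41% lower. The median of this difference over all genes was -0.12, so that PAR changes stood lower in general, and with each library centred on its median it was 0.07 and the split of calls turned from 59 higher and 500 lower to 303 higher and 162 lower. Among the members the split was 1 higher and 3 lower, but 3 higher and 2 lower with medians centred and 2 and 2 with quantile normalization. HLA-F, PVR and CD74 kept their direction and their call under both. HLA-F changed by -0.04 in PAR and by 1.13 to 1.74 in the others, a difference of -1.48 ± 0.19 (adjusted p = 0.00128, limma). Its level in PAR was 12.1, 11.8 and 11.7 TPM untreated, with E and with EA. PVR fell by 0.94 in PAR, from the highest untreated level (91.6 TPM) to the lowest with E (47.2 TPM), and by 0.14 to 0.42 in the others (-0.70 ± 0.11, adjusted p = 0.00364, limma).

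MICB changed by -1.197 in PAR and by -0.82 to -0.57 in the others (-0.48 ± 0.13, adjusted p = 0.0403, limma), a call that was lost with library medians centred (-0.29, adjusted p = 0.155, limma) or quantile normalization (-0.29, adjusted p = 0.188, limma) and on leaving out any of 7 lines. CD74 rose by 1.68 in PAR and by 0.83 to 1.23 in the others (0.66 ± 0.13, adjusted p = 0.0119, limma), although its level in PAR with E stayed below every other library of the series outside PAR. In HLA-F the level was spread over 106 listed transcripts, 7 of them with a mean of 1 TPM or more, and the leading one held 20.3% of the gene. That transcript, ENST00000376844, had 0, 2.16 and 1.74 TPM in PAR and a mean of 1.01 TPM untreated and 6.41 TPM with E over the 10 lines. How much of the HLA-F result rests on the division of reads among these transcripts was not tested.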

How the data were processed

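The authors deposited 1 table of TPM for 188753 transcripts in 29 libraries of polyA RNA. Kallisto and GRCh38 are named in the submitters' processing notes, and a kallisto version and the strand setting are not given in the sources used here. Values were summed per gene by GENCODE release 29 identifiers. Transcripts on alternate haplotypes and patches (15315) were added to the gene of the same symbol, 3641 transcripts were not used, and the sums held 98.9 to 99.2% of each library's TPM (97.0 to 97.4% for the primary assembly alone). The study's methods filter at 10 TPM, so genes whose mean over all 29 libraries reached 10 TPM were tested on log2(TPM + 1) with limma 3.58.1 (trend) in R 4.3.3, Benjamini-Hochberg threshold 0.05. Groups were taken from the sample labels. Treatments were compared with the line as a block, since libraries of a line come from the same cells (EA against E without KD and KO). PAR and KO were compared on the mean of each line's untreated and E values. The steps were tested on simulated data in which 200 genes were set to differ. At a log2 difference of 0.5, 0 of 200 were recovered for the response of PAR and 124 to 191 for the other comparisons. At 1, the numbers were 133 and 195 to 200. For the levels of PAR and of KO against other lines, the simulated lines differed from each other only by residual noise. The numbers recovered there can therefore be too high for the real lines. How well the other simulated data match the spread between the real lines was not tested. Python 3.11.15 and pandas 2.3.3 were used for tables.

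The members and lists were chosen with earlier results of these data known. All members are reported. Full values were given for a fixed set and the 6 largest rises and 6 largest falls with E shared by all lines, the 3 smallest p-values between EA and E, and the 2 largest rises and falls of each other list, with IRF1 and AXL. A further gene that this rule names and a further promoter motif that was searched are not reported here. PSMB5, PSMB6, PSMB7, the differences of members that single lines set apart, and the single transcripts lie outside that rule and were picked with their values in view. Alternatives were a pseudocount of 0.1, other filters, centred medians, quantile normalization, coding transcripts, the primary assembly alone, no block, quality weights, KD included, untreated or E libraries alone, and leaving out each line. Promoter windows were taken from RefSeq by symbol, the first with a match.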

Additional observations from a re-analysis of the deposited data

Results flagged for a closer look

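Among the 29 members tested, single lines that stood apart from the others were searched in 87 sets of values (the change with E in 10 lines, the change from E to EA in 8 lines, and the untreated log2 level in 10 lines), by the gap to the nearest line as a share of the whole range. A line stood apart in 20 sets, where chance gives about 1 in 20 sets, or 4.35, and the line was PAR in 13 of them. The 87 sets draw on the same libraries and are not independent of each other. The 20 sets were therefore not tested against the number by chance. All values are log2 differences or log2(TPM + 1).

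PAR stood below the 9 other lines in its untreated level of HLA-B (3.71 beside 4.55 to 5.21), B2M (9.94 beside 10.44 to 10.82), PSMB8 (5.91 beside 6.25 to 6.44), PSMB9 (4.86 beside 5.74 to 6.07), PSMB10 (4.75 beside 5.24 to 5.68) and CD74 (3.21 beside 6.55 to 7.22), and above them in PVR (6.53 beside 6.04 to 6.25). Its change with E stood apart for HLA-F (-0.035 beside 1.13 to 1.74), CD74 (1.68 beside 0.83 to 1.23), PVR (-0.94 beside -0.42 to -0.14) and MICB (-1.197 beside -0.82 to -0.57). For these members, limma's differences between the change in PAR and in the 9 other lines were -1.48 for HLA-F, -0.70 for PVR, -0.48 for MICB and 0.66 for CD74. They are computed from the same values as this search, so they are no second support for it. From E to EA, PAR fell more than the 7 other lines in HLA-B (-0.87 beside -0.19 to 0.38) and HLA-E (-0.36 beside -0.12 to 0.00).

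Of the lines made from knockout cells, WT rose least in B2M with E (0.60 beside 0.72 to 0.85), had the highest untreated levels of ERAP1 (4.52 beside 3.97 to 4.24) and CD276 (6.37 beside 5.998 to 6.15), and rose in HLA-DMA from E to EA (0.39 beside -0.30 to -0.11). Y821F fell most in HLA-C from E to EA (-0.27 beside -0.12 to -0.01), Y643F had the highest untreated HLA-E (6.70 beside 6.12 to 6.41), and Y750F rose most in TAPBPL with E (1.196 beside 0.83 to 1.01). With 1 library per line and treatment, a property of a line and an accident of its dish or library cannot be told apart.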

How the results depend on the processing

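The number of members called between E and untreated was 27 in the main test and on leaving out each line, and 26 to 31 under the other settings except 2, with 21 of 24 for the primary assembly alone and 16 of 20 for protein-coding transcripts of the primary assembly alone. Directions that turned there were those of members that had not passed, PSME2 (0.0092 with library medians centred and 0.029 with quantile normalization) and CALR (0.034 and 0.080, the last past the threshold). Between EA and E the count was 0, and 1 (PSMB9, lower) with library medians centred, quantile normalization, quality weights or KD included, and 0 to 1 on leaving out a line. Over all genes it was 234 there, but 9 with no replicate block, 24 with no filter, 70 with the minimum at 1 TPM, 155 with KD included, 361 for coding transcripts and 10 (without Y634F) to 210 (without Y726F) on leaving out a line, with 187 higher and 47 lower against 151 and 86 with medians centred. With no replicate block CD74 did not pass between EA and untreated (1.04, adjusted p = 0.0711, limma), the only member call that the block decided. Coding transcripts alone gave 13 members between EA and untreated (25 in the main test), 6 in PAR against the 9 lines (10) and 2 in the response of PAR (4), and the primary assembly alone gave 2 in that response. HLA-F in PAR turned to 0.14 in the untreated libraries alone. For KO against the transduced lines the member count was 0 throughout, and over all genes it was 2, but 361 with no filter. The number of genes called in the response of PAR was 559, but 1319 with no filter, 259 with quantile normalization and 272 for coding transcripts. The causes were not tested, apart from the fewer members measured in the coding and primary sums. The sum over the primary assembly was added as a setting after the data were seen. TPM holds no read numbers, so counting error could not be set beside any value, and with 1 library per line no line has a replicate.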

Other observations

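Other immune ligands and receptors, outside the 39 genes, moved in both directions. Of 9 measured genes of that list, 5 rose and 4 fell with E, beside 36.6% and 42.6% of all genes. CD24, the ligand of Siglec-10 on macrophages, rose from a median of 149 TPM (range 119–251) to a median of 1078 TPM (range 977–1303) (log2 difference 2.79 ± 0.07, adjusted p = 7.77e-14, limma), and LGALS9, galectin-9, from a median of 5.89 TPM (range 3.31–14.2) to a median of 33.3 TPM (range 16.1–44.4) (2.15 ± 0.13, adjusted p = 1.21e-09, limma). NT5E (CD73), the ectoenzyme that makes adenosine, fell from a median of 90.3 TPM (range 79.4–150.1) to a median of 17.7 TPM (range 13.1–24.3) (-2.34 ± 0.07, adjusted p = 5.31e-13, limma), and CD58, the ligand of CD2, fell by 0.64 ± 0.08 (adjusted p = 2.38e-06, limma). For CD24, LGALS9 and NT5E the untreated and E libraries did not overlap.

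Of 4 measured complement genes outside the regulators, 2 rose and 0 fell with E, beside 36.6% and 42.6% of all genes. CFB, a component of the alternative pathway convertase that CD55 dissociates, rose from a median of 6.01 TPM (range 4.79–8.21) to a median of 22.2 TPM (range 20.3–29.6) (1.75 ± 0.07, adjusted p = 4.75e-12, limma) in 10 of 10 lines. CLU, clusterin, rose from a median of 372 TPM (range 340.5–435) to a median of 673 TPM (range 614–773) (0.81 ± 0.04, adjusted p = 1.19e-10, limma). From E to EA 0 genes of either list passed. Of the 6 epithelial markers, 3 rose and 3 fell with E, with KRT7 (0.88 ± 0.03) and CDH1 (0.67 ± 0.04) the largest rises and KRT18 (-0.64 ± 0.03) and EPCAM (-0.44 ± 0.03) the largest falls (adjusted p = 5.5e-13, 1.88e-09, 3.35e-11 and 1.48e-09, limma).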
